A study of Mus musculus with 8 samples.

Results

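A set of 8 genes was followed that mature beta cells normally keep low, or that mark beta cells losing their mature state. They were read in islets isolated from wild-type and Irs2-/- mice given plain water or tungstate in their drinking water. The genes were Aldh1a3, Hk1, Hk2, Ldha, Slc16a1, Fbp2, Neurog3 and Rest, 8 of 18193 genes that had a probe set naming that gene alone. Each gene was read from the brightest such probe set by its mean over the 8 arrays, and the remaining probe sets served as a check. On plain water, Irs2-/- islets had higher Aldh1a3, Hk2, Ldha and Fbp2 than wild-type islets, whereas Hk1, Rest and Neurog3 did not pass the test and Slc16a1 was too dim to be tested. No gene of the 8 passed the test in any comparison that involved tungstate.

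The islets came from male C57Bl/6 mice, wild type (WT) or Irs2-/-, that were 10 weeks old when the treatment began and 13 weeks old at its end. For 21 days the untreated mice of each genotype drank distilled water and the treated mice drank sodium tungstate dissolved in it. The concentration has the number 2 in every source, but the series' design gives it per ml and the sample labels per dl, and this was not settled. Each of the 4 groups had 2 independent samples, which the labels do not tie to individual or pooled mice; p-values cover no more than the spread between them. The labels name no tissue-specific driver for the deletion, so other organs of these mice may lack Irs2 as well.

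Irs2 encodes an adaptor that links the insulin and IGF-1 receptors to the kinase pathways that keep beta cells growing and alive, and mice without it develop diabetes as their beta cells fail. Sodium tungstate is a salt that lowers blood glucose in diabetic rodents when taken by mouth. Beta cells read glucose by burning nearly all of it in the mitochondria, and they keep several enzymes and transporters that most other tissues use almost silent; these are called disallowed genes. The high-affinity hexokinases encoded by Hk1 and Hk2 are among those kept low. Ldha makes lactate from pyruvate and Slc16a1 (MCT1) carries pyruvate and lactate across the cell membrane, and both are held down so that pyruvate does not escape to, or enter from, the blood. Beta cells under long metabolic stress can lose their mature program, a state called dedifferentiation, in which Aldh1a3 is a widely used marker and progenitor factors such as Neurog3 may reappear. Bulk islet RNA holds all of the islet's cells, so more cells of a type and more RNA in each cell cannot be told apart.

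Values are log2 signals, so that a difference of 1 is a 2-fold difference, and they are given for replicate 1 and then replicate 2 of a group. A gene was tested where its mean over the arrays was at least 5.27, the 40th percentile of all probe sets, and it was called where the adjusted p of limma was under 0.05. The deleted gene was checked first. Irs2 read 7.91 and 7.73 in untreated and 7.89 and 7.61 in treated WT islets, against 4.54 and 4.89 in untreated and 4.78 and 4.86 in treated Irs2-/- islets, so every Irs2-/- array lay below every WT array. Islet identity was clear, with Ins2 between 14.72 and 14.75 and Gcg between 14.15 and 14.39 over the 8 arrays. Ins2, the main mouse insulin gene, was the highest signal on each of the 8 arrays, at the top of the scale, where a difference between groups may not show. Gcg, the glucagon gene, was close to that top and did not pass between untreated genotypes (-0.13 ± 0.12, SE, adjusted p = 0.498). Array medians lay between 5.63 and 5.71. Replicate 1 of both untreated groups stood apart from replicate 2, with higher lymphocyte markers and lower acinar markers in each. Several results that rest on these 2 arrays are also given without them.

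The upstream sequences of 6 of the 8 genes were found in the RefSeq promoter table (GRCm38.p6), and those of Hk2, Ldha, Fbp2 and Slc16a1 are shown because the first 3 were higher together in untreated Irs2-/- islets and Slc16a1 moves the product of Ldha. Each is the 250 bases before an annotated start of the gene, read 5′ to 3′ on the gene's own strand, with the motif matches in capitals. The motifs searched, on both strands, were CACGTG (the E-box that MYC and carbohydrate-sensing factors can bind), ACGTG (the core of the hypoxia response element, which overlaps every CACGTG), TGACGTCA (the cyclic AMP response element), GGGCGG (the GC box), CCAAT and TATAAA.
Hk2, chr6:82774455-82774704, minus strand: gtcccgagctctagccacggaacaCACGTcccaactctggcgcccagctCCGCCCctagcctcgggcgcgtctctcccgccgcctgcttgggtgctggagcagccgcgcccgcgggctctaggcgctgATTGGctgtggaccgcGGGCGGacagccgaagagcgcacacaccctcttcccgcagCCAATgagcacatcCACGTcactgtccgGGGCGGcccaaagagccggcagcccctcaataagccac
Ldha, chr7:46845554-46845803, plus strand: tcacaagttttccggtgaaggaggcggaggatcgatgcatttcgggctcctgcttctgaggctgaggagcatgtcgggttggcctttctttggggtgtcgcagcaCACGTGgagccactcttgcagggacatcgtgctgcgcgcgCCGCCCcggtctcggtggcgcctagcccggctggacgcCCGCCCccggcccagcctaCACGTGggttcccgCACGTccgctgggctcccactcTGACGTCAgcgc
Fbp2, chr13:62858401-62858650, minus strand: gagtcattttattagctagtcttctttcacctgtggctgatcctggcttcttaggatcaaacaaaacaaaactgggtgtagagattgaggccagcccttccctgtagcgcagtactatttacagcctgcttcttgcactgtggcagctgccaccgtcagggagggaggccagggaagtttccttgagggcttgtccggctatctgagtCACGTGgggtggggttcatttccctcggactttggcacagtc
Slc16a1, chr3:104638414-104638663, plus strand: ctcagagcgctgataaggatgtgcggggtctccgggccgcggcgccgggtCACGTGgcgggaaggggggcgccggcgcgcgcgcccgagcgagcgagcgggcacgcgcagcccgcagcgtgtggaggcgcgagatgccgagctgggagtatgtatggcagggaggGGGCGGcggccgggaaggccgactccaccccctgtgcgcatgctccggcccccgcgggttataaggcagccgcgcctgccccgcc

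CACGTG was found in the windows of Ldha, Fbp2 and Slc16a1, 3 of the 6 genes, and in those of 6.86% of all 27025 genes in the table. The Ldha window held it at both 145 and 48 bases before the start, counted to the motif's first base, the Fbp2 window at 42 bases and the Slc16a1 window at 200 bases. Hk2 had no CACGTG, but its window matched the shorter ACGTG at 226 and 52 bases before the start, and ACGTG was present in 4 of the 6 genes against 18.5% of all genes. A single TGACGTCA, found in 1.77% of all genes, lay 12 bases before the Ldha start. GC boxes were in the Hk2, Ldha and Slc16a1 windows (35.4% of all genes), CCAAT in those of Hk2 and Neurog3 (37.5%), and TATAAA in none of the 6 (14.3%). The windows of both annotated Hk1 starts and of a further Ldha start held none of these motifs. A match describes the letters and does not show that a factor bound there.

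Aldh1a3 (chr7:66390892-66427477, GRCm38.p6) encodes a retinaldehyde dehydrogenase that makes retinoic acid. Its probe set read 5.57 and 5.79 in untreated WT islets, 5.30 and 6.45 in treated WT islets, 9.10 and 8.15 in untreated Irs2-/- islets and 8.73 and 7.21 in treated Irs2-/- islets. Every Irs2-/- array lay above every WT array, with the treated Irs2-/- replicate 2 the lowest of the 4 and the treated WT replicate 2 the highest of the others. The difference between untreated genotypes was 2.95 ± 0.55 (SE, adjusted p = 0.0132), a 7.71-fold higher signal. Among the brightest probe sets of the 8 genes this was the largest difference. Between treated genotypes the difference was 2.10 ± 0.55 (adjusted p = 0.112), and treated Irs2-/- islets stood 2.29 ± 0.55 above untreated WT islets (adjusted p = 0.0992). Neither passed. Leaving out the treated Irs2-/- replicate 2, the lowest Irs2-/- array, brought the difference between treated genotypes to 2.86 and the last one to 3.05. These were the largest values over the 20 alternative settings that refitted the data, and the smallest were 1.01 and 1.04. Within genotypes, tungstate against water gave -0.66 ± 0.55 in Irs2-/- islets (adjusted p = 0.645) and 0.19 ± 0.55 in WT islets, in both cases less than the spread between replicates of the treated group.

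Both further probe sets of Aldh1a3 were also higher in Irs2-/- islets. Probe set 1427395_a_at read 6.25 and 6.50 in untreated WT islets and 7.65 and 7.60 in untreated Irs2-/- islets, a difference of 1.25 ± 0.18 (SE, adjusted p = 0.00805 over all 34945 single-gene probe sets). Probe set 1417642_at read 5.12 and 5.17 against 6.75 and 5.86, a difference of 1.16 ± 0.33 that did not pass (adjusted p = 0.0659). The direction was therefore the same in 3 of 3 probe sets while the size varied from 1.16 to 2.95. On both further probe sets it was below the differences of Ldha (1.84) and Fbp2 (1.59). On 1417642_at, and on the brightest probe set besides the treated WT replicate 2 (6.45), WT values lay near the level of 5.27 under which genes were not tested. Those sizes are therefore not exact, while on 1427395_a_at the WT values lay between 6.25 and 6.50. The call on the brightest probe set rested on few arrays: the adjusted p was 0.0607 or 0.0561 without either untreated WT array, 0.0687 without the untreated Irs2-/- replicate 1 and 0.168 without untreated replicate 1 of both genotypes, with differences of 2.36 to 3.06.

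**Figure D1:**
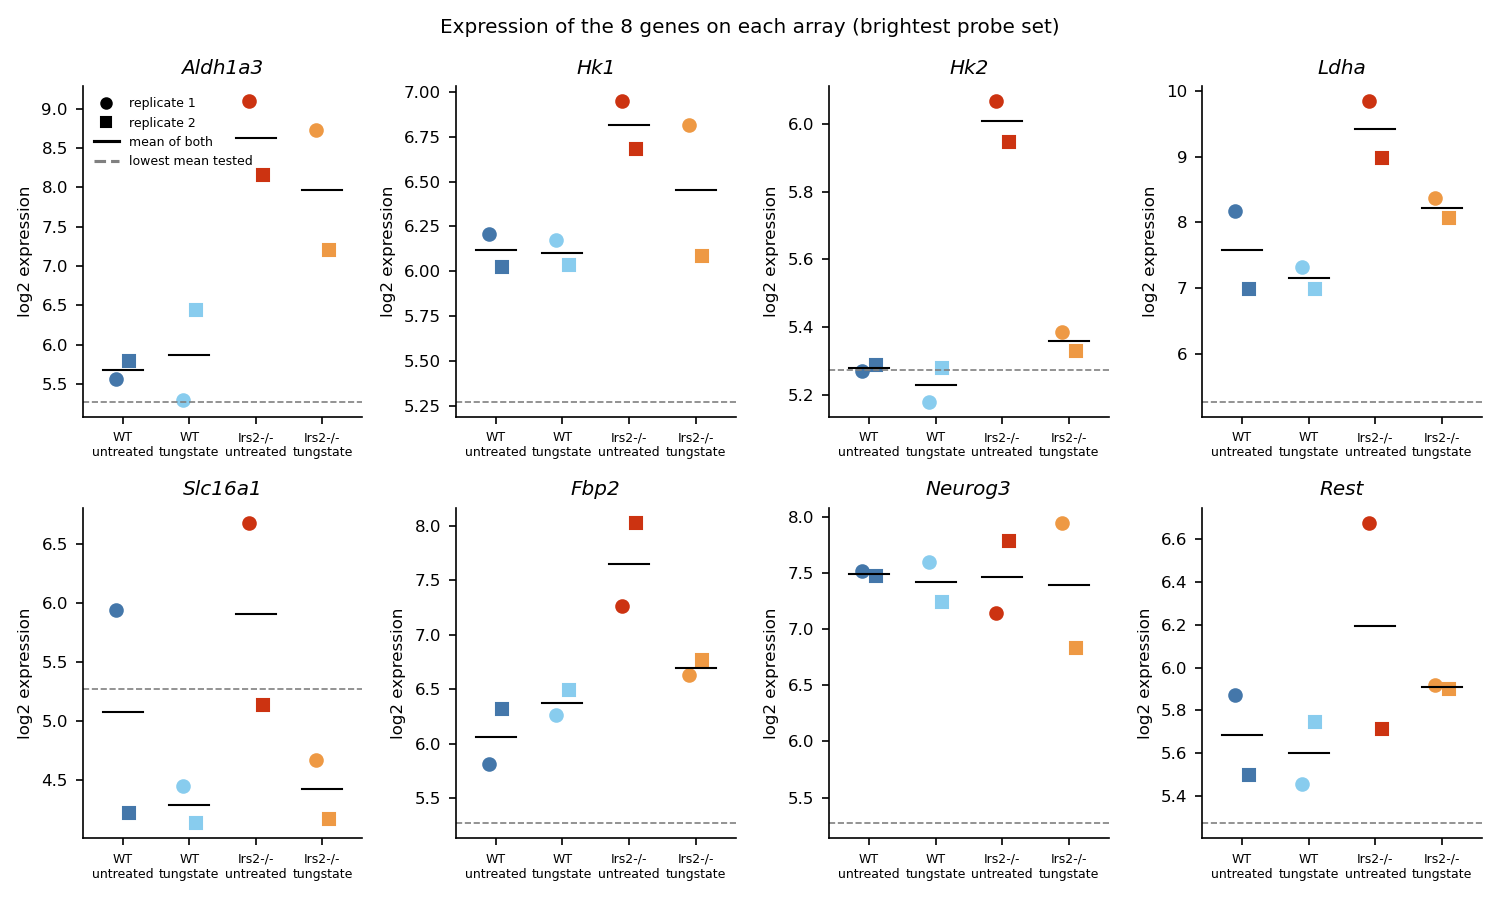
Log2 expression (vertical axis, a separate scale for each gene) of the 8 genes in the 4 groups; circles are replicate 1, squares replicate 2, bars the mean of both, and the dashed line the lowest mean that was tested (5.27). Aldh1a3 stayed above every WT array in both Irs2-/- groups, Hk2 stood apart in the untreated Irs2-/- group alone at 6.07 and 5.95, and Neurog3 overlapped in all groups.

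The hexokinases differed from each other in how far the groups were separated. Hk2 (chr6:82725025-82774454), the high-affinity hexokinase of muscle and of proliferating cells, read 5.27 and 5.29 in untreated WT islets, 5.18 and 5.28 in treated WT islets, 6.07 and 5.95 in untreated Irs2-/- islets and 5.39 and 5.33 in treated Irs2-/- islets. The untreated Irs2-/- arrays were the only high ones, and the other 6 lay between 5.18 and 5.39. Untreated Irs2-/- islets were higher by 0.73 ± 0.11 (SE, adjusted p = 0.00697), or 1.65-fold, whereas between treated genotypes the difference was 0.13 ± 0.11 (adjusted p = 0.642). With tungstate, Irs2-/- islets read -0.65 ± 0.11 relative to water, without overlap of the arrays, and this missed the threshold narrowly (adjusted p = 0.0621). It passed after each array was centred on its median (adjusted p = 0.0492) and when probe sets were averaged for every gene (adjusted p = 0.0481). All WT readings sat at the lowest level tested, so the measured fold may understate the difference. Without untreated replicate 1 of both genotypes the genotype difference was 0.66 and its adjusted p 0.108.

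Hk1 (chr10:62268855-62379920), the hexokinase of brain and most other tissues, read 6.21 and 6.02 in untreated WT islets, 6.17 and 6.03 in treated WT islets, 6.95 and 6.68 in untreated Irs2-/- islets and 6.82 and 6.09 in treated Irs2-/- islets. Untreated arrays did not overlap between genotypes, and the treated Irs2-/- group split into an array near the untreated Irs2-/- level and an array at the WT level. The untreated genotype difference of 0.70 ± 0.23 (SE) had an adjusted p of 0.0723 and was not called. Its size was close to that of Hk2, but its standard error was larger. It passed, with the same size, when the fit used the untreated arrays alone (adjusted p = 0.0409). Of the 20 alternative settings that refitted the data it passed in 4, and its size lay between 0.30 and 0.89. A further Hk1 probe set lay under the level tested at 4.23 to 4.66, and another was shared with a ribosomal protein gene and was not used.

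Lactate production and export were read by Ldha and Slc16a1. Ldha (chr7:46842274-46855627), the subunit that favours making lactate from pyruvate, read 8.17 and 6.99 in untreated WT islets, 7.32 and 6.98 in treated WT islets, 9.85 and 8.99 in untreated Irs2-/- islets and 8.38 and 8.07 in treated Irs2-/- islets. Both untreated Irs2-/- arrays exceeded all the others, and the untreated WT replicate 1 lay among the treated Irs2-/- arrays. The untreated genotype difference was 1.84 ± 0.40 (SE, adjusted p = 0.0214), a 3.57-fold higher signal. It was 1.07 ± 0.40 between treated genotypes (adjusted p = 0.236) without overlap, and treated against untreated Irs2-/- islets differed by -1.19 ± 0.40 (adjusted p = 0.258), again without overlap. Against untreated WT islets, treated Irs2-/- islets read 0.64 ± 0.40 higher, which did not pass (adjusted p = 0.419), and the arrays overlapped. The call was lost without the untreated WT replicate 2 (1.25, adjusted p = 0.0838), without the untreated Irs2-/- replicate 1 (1.41, adjusted p = 0.0993), with a variance trend and robust moderation (adjusted p = 0.0552) and with the untreated arrays fitted alone (adjusted p = 0.0545). With the mean level of acinar markers as a covariate, Ldha passed between treated genotypes at 1.61 (adjusted p = 0.0147) and for tungstate in Irs2-/- islets at -1.30 (adjusted p = 0.0304).

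Slc16a1 (chr3:104638664-104658462) had a mean of 4.93 over the arrays and was not tested. It read 5.94 and 4.22 in untreated WT islets, 4.45 and 4.14 in treated WT islets, 6.68 and 5.14 in untreated Irs2-/- islets and 4.67 and 4.17 in treated Irs2-/- islets. Only replicate 1 of the 2 untreated groups exceeded the level tested, and the gap between replicates was larger than that between the genotypes. Fitted with no filter, the untreated genotype difference was 0.83 ± 0.59 (SE, adjusted p = 0.434) and that of tungstate in Irs2-/- islets -1.49 ± 0.59 (adjusted p = 0.363). Its further probe set stayed between 4.23 and 4.51. A difference in the transporter was not detectable at these signals. Bsg, the chaperone (basigin) that brings monocarboxylate transporters to the cell membrane, rose in untreated Irs2-/- islets by 0.72 ± 0.14 (adjusted p = 0.016). It read 10.62 and 10.78 in untreated WT islets against 11.52 and 11.33 in untreated Irs2-/- islets, and 0.26 ± 0.14 separated the treated genotypes (adjusted p = 0.421).

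Fbp2 (chr13:62836884-62858400), the muscle form of fructose-1,6-bisphosphatase, works in the direction opposite to glycolysis and turns fructose-1,6-bisphosphate back into fructose-6-phosphate. Its probe set read 5.81 and 6.32 in untreated WT islets, 6.26 and 6.50 in treated WT islets, 7.27 and 8.03 in untreated Irs2-/- islets and 6.63 and 6.77 in treated Irs2-/- islets. The untreated Irs2-/- arrays were the highest of the 8, and the treated Irs2-/- arrays lay just above the treated WT arrays. Untreated Irs2-/- islets were higher by 1.59 ± 0.26 (SE, adjusted p = 0.00914), a 3.0-fold higher signal, and this call held in each of the 20 alternative settings that refitted the data, at differences between 1.20 and 1.97. Between treated genotypes the difference was 0.32 ± 0.26 (adjusted p = 0.621). Tungstate against water gave -0.95 ± 0.26 in Irs2-/- islets (adjusted p = 0.182), without overlap, and 0.31 ± 0.26 in WT islets. Fbp1, the liver form of the enzyme, did not pass between untreated genotypes (0.39 ± 0.24, adjusted p = 0.312).

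Neurog3 (chr10:62133090-62134763), the transcription factor that starts endocrine cell formation in the embryonic pancreas, showed no separation of the groups. It read 7.51 and 7.47 in untreated WT islets, 7.59 and 7.24 in treated WT islets, 7.15 and 7.78 in untreated Irs2-/- islets and 7.95 and 6.83 in treated Irs2-/- islets. The highest and the lowest of the 8 values were the replicates of the treated Irs2-/- group. The untreated genotype difference was -0.03 ± 0.35 (SE, adjusted p = 0.97), so that a change of the size seen for Hk2 could not have been told from the spread. Its further probe set lay under the level tested, between 4.98 and 5.27.

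Rest (chr5:77265494-77286432) encodes the repressor that keeps neuronal genes silent outside neurons, and mature beta cells share many of those neuronal genes because they lack it. It read 5.87 and 5.50 in untreated WT islets, 5.46 and 5.75 in treated WT islets, 6.68 and 5.71 in untreated Irs2-/- islets and 5.92 and 5.90 in treated Irs2-/- islets. Replicate 1 of the untreated Irs2-/- group stood apart from the other 7 arrays. The untreated genotype difference of 0.51 ± 0.29 (SE) did not pass (adjusted p = 0.263); it was 0.03 without that array and 0.99 without the untreated Irs2-/- replicate 2 (adjusted p = 0.0261). Probe set 1428227_at gave 1.26 ± 0.36 (adjusted p = 0.0684), from 5.34 and 4.64 in untreated WT islets and 6.85 and 5.64 in untreated Irs2-/- islets, and again replicate 1 was the higher in both groups. The 2 remaining probe sets lay under the level tested, at 4.54 to 4.73 and at 4.09 to 4.47, and gave -0.05 and -0.25. The 4 probe sets thus differed in sign.

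**Figure D2:**
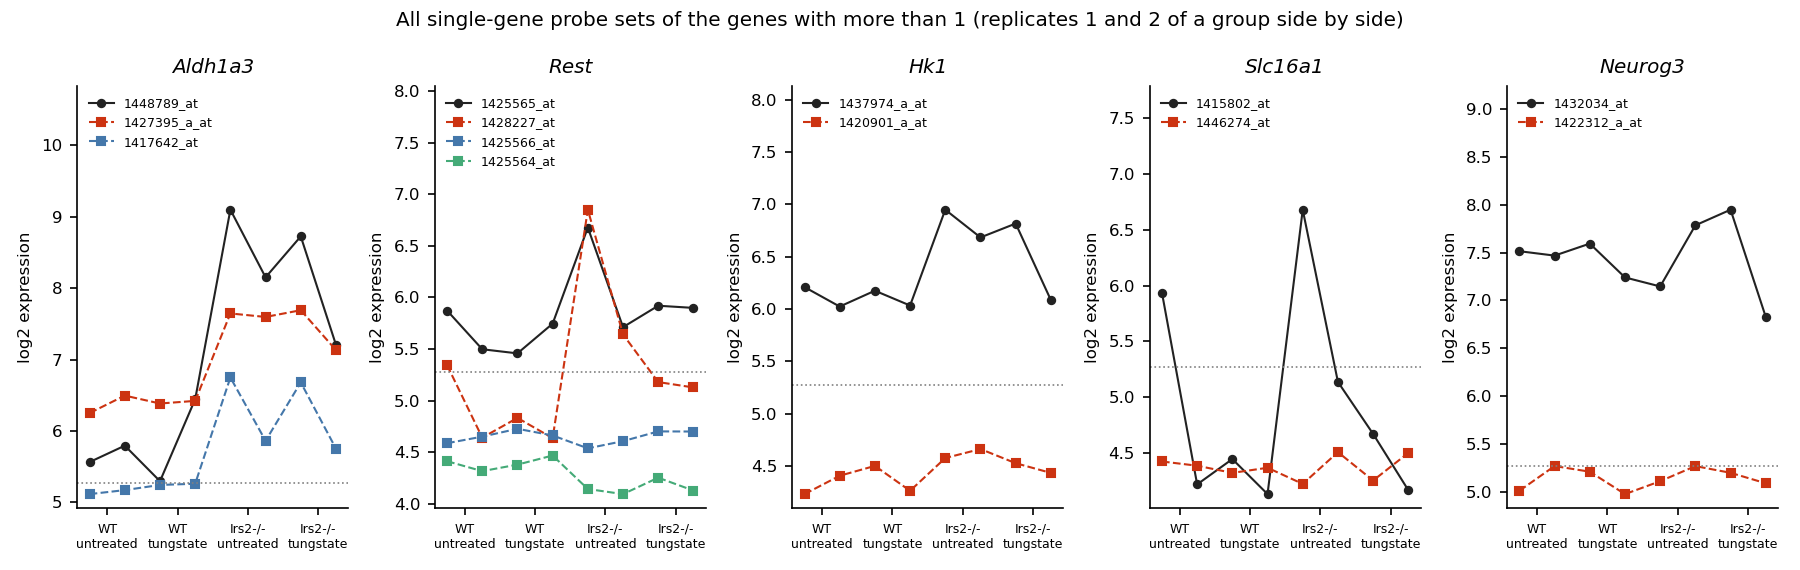
Log2 expression of all single-gene probe sets of the 5 genes that have more than 1, with replicates 1 and 2 of each group side by side; black is the brightest and the dotted line the lowest mean tested. The 3 Aldh1a3 probe sets were all higher in untreated Irs2-/- islets, by 1.16 to 2.95, while the 4 Rest probe sets differed in sign.

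In total, 4 of the 7 tested genes rose in untreated Irs2-/- islets and none fell, where 16.8% of all 13369 genes tested were called in this comparison and 8.27% were called higher. The median difference of the 7 was 0.73, that of all genes tested -0.01. With 2 arrays a group, 60.6% of all genes did not overlap between untreated genotypes, so a lack of overlap alone says little about a gene. Between treated genotypes 0 of the 7 passed, with 2 at an unadjusted p under 0.05, and 1.02% of all genes were called. For tungstate in Irs2-/- islets 0 of the 7 passed, with 3 at an unadjusted p under 0.05, and 0.494% of all genes were called. All 7 differences were below 0 in that comparison, with a median of -0.65, but it shares the untreated Irs2-/- arrays with the untreated genotype comparison, so a high reading there enters both. In WT islets 0 of the 7 and 0 of all genes passed (0% called, 364 at an unadjusted p under 0.05), and the 7 differences lay between -0.43 and 0.31. Treated Irs2-/- against untreated WT islets gave 0 of 7, with 0.352% of all genes called and 2 of the 7 at an unadjusted p under 0.05.

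Whether tungstate acted differently in the 2 genotypes was asked by the interaction, the tungstate difference in Irs2-/- islets minus that in WT islets. No gene of the 7 passed, where 3 of all genes (0.0224%) did. The smallest p-values were those of Fbp2 (-1.26 ± 0.37, unadjusted p = 0.00908, adjusted p = 0.683) and Hk2 (-0.60 ± 0.15, unadjusted p = 0.00471, adjusted p = 0.557). Ldha gave -0.76 ± 0.56 (adjusted p = 0.867) and Aldh1a3 -0.85 ± 0.77 (adjusted p = 0.905).

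**Figure D3:**
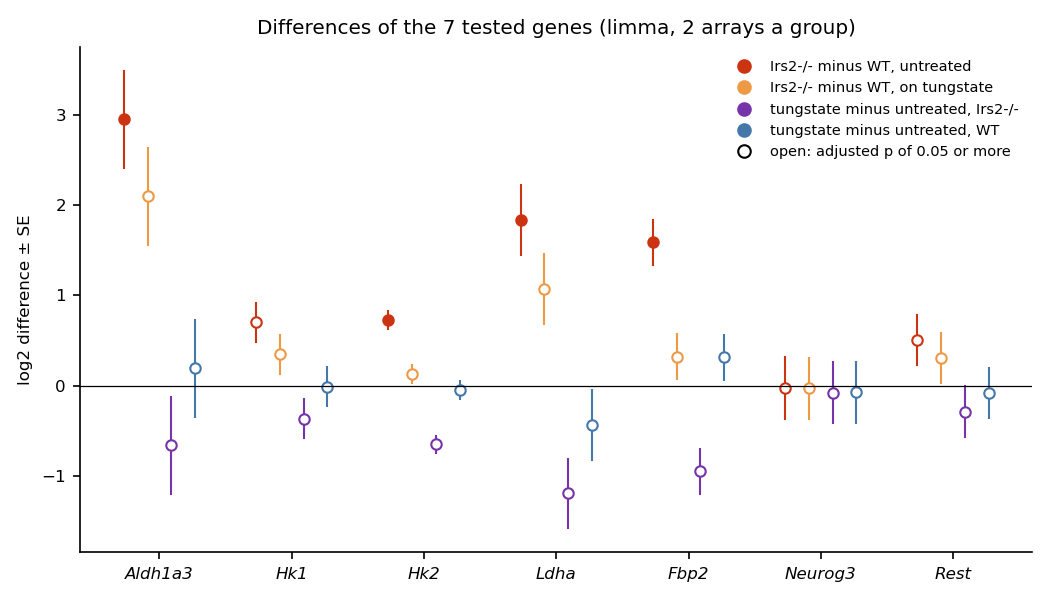
Log2 differences with standard errors (vertical axis) of the 7 tested genes in 4 comparisons, 2 arrays a group; filled points had an adjusted p under 0.05. Filled points occur for Aldh1a3, Hk2, Ldha and Fbp2 between untreated genotypes, and the red and purple comparisons share the untreated Irs2-/- arrays.

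The order of the group means was the same for Hk1, Hk2, Ldha and Rest, with untreated Irs2-/- islets first, treated Irs2-/- islets next, then untreated and then treated WT islets. Neighbours in this order often could not be told apart. For Ldha the step from treated Irs2-/- (8.22 ± 0.22, SD, n = 2) to untreated WT islets (7.58 ± 0.83) was 0.64 with overlapping arrays, and for Hk1 every step between neighbours was within the spread. For Hk2 the first step, from 6.01 ± 0.08 to 5.36 ± 0.04, was the only one above 0.1. In Aldh1a3 and Fbp2 the treated WT group came above the untreated WT group, with overlapping arrays. The largest step of Aldh1a3 lay between genotypes, from 7.97 ± 1.07 in treated Irs2-/- to 5.87 ± 0.81 in treated WT islets. That of Fbp2 lay within Irs2-/- islets, from 7.65 ± 0.54 on water to 6.70 ± 0.10 on tungstate. Neither step passed (limma adjusted p = 0.112 and 0.182).

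A list of 17 further genes that have been described as disallowed in beta cells was read the same way. All 17 were tested and all 17 read higher in untreated Irs2-/- islets, with a median difference of 0.97, and 5 passed: Oat, Cxcl12, Acot7, Maf and Tgm2. Of all 13369 genes tested, 6487 read higher in this comparison and 8.27% were called higher. Oat, the ornithine aminotransferase, read 7.89 and 7.29 in untreated WT islets against 9.27 and 9.13 in untreated Irs2-/- islets (1.61 ± 0.30, SE, adjusted p = 0.0137). Cxcl12, a chemokine, read 7.39 and 5.83 against 9.66 and 8.49 (2.46 ± 0.54, adjusted p = 0.0224). Acot7, an acyl-CoA thioesterase, differed by 0.97 ± 0.23 (adjusted p = 0.027) and the transcription factor Maf by 1.58 ± 0.41 (adjusted p = 0.0381). Tgm2, a transglutaminase outside the rule for named genes, completes the count at 1.63 ± 0.46 (adjusted p = 0.0469). Between treated genotypes 16 of the 17 were above 0 with a median of 0.89, and 0 passed, with 13 at an unadjusted p under 0.05. Over all 13369 genes, 6368 were above 0 and 2147 had such a p. For tungstate in WT islets 0 of the 17 were above 0, with a median of -0.68, where 5670 of all 13369 genes were above 0. Treated Irs2-/- islets stood above untreated WT islets by a median of 0.38, with 15 of the 17 above 0 and 2 at an unadjusted p under 0.05. There, 6107 of all genes were above 0. In either comparison 0 of the 17 passed. These comparisons share arrays, so that low treated WT readings enter the treated genotype difference. Fibroblast and stellate markers were lowest in treated WT islets too, at 6.82 and 6.99, against 5.90 and 5.89 for the mean of the 17. They were also higher in replicate 1 of both untreated groups, at 8.23 and 7.37 in WT and 8.81 and 8.60 in Irs2-/- islets. The part of those cells in the 17 genes was not tested. Replicate 1 was the higher in both untreated groups by the list's mean, 7.16 and 6.22 in WT and 8.05 and 7.53 in Irs2-/- islets. Without those 2 replicates, 16 of 17 were above 0 with a median of 1.17. That fit left 1 array in each untreated group, and fewer of the 17 and fewer of all genes passed. Leaving out single arrays gave 0 to 7 genes past the threshold.

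**Figure D4:**
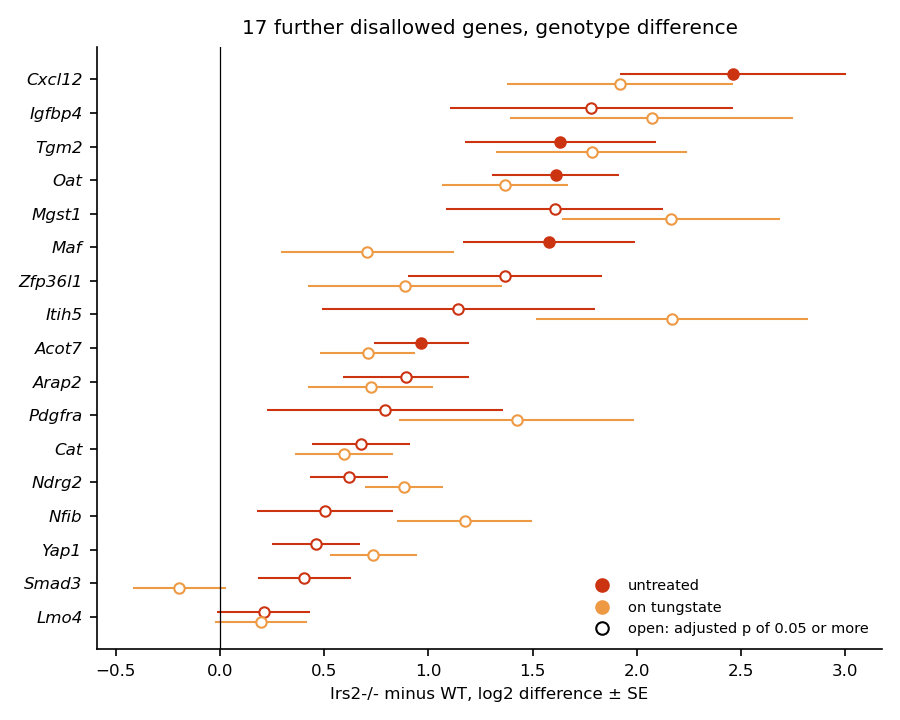
Irs2-/- minus WT log2 differences with standard errors (horizontal axis) of the 17 further disallowed genes, without treatment (red) and on tungstate (orange); filled points had an adjusted p under 0.05. All 17 red points lie right of 0 and 5 are filled, and 16 of the 17 orange points lie right of 0 with none filled.

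Of 10 genes that mark progenitor or dedifferentiated endocrine cells, 6 could be tested and 2 rose in untreated Irs2-/- islets, beside a median of 0.41. Of all genes tested, 8.27% were called higher there. Gast, the gastrin precursor that the embryonic but not the adult pancreas expresses, read 4.53 and 4.69 in untreated WT islets and 10.00 and 10.26 in untreated Irs2-/- islets (5.52 ± 0.13, SE, adjusted p = 2.03e-06). All WT readings of Gast were under 5.27, the level used for untested genes, so differences from WT islets are not exact sizes. In treated Irs2-/- islets it read 7.85 and 7.76, lower than on water by a difference of -2.32 ± 0.13 (adjusted p = 0.00174) and still above treated WT islets by 3.15 ± 0.13 (adjusted p = 0.000164). Vim, the intermediate filament vimentin that stromal and immune cells also express, rose by 1.56 ± 0.39 (adjusted p = 0.0337). Cd24a (0.50 ± 0.18, adjusted p = 0.0968) and the growth regulator Myc (0.32 ± 0.40, adjusted p = 0.624) did not pass. The pluripotency factors Nanog and Pou5f1 were under the level tested on every array, with means of 3.78 and 4.47, as was Mycl. Cck, the cholecystokinin gene, was left out of the tests by its mean of 5.22 alone: it read 5.81 and 6.49 in untreated Irs2-/- islets against 4.79 and 4.82 in untreated WT islets, and 5.21 and 5.21 in treated Irs2-/- islets. Sox9 and Hes1, outside the rule for named genes and given because they act before Neurog3 in the progenitor, gave 0.03 ± 0.16 and 0.06 ± 0.12.

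Targets of NEUROG3 and other endocrine lineage factors were read for 5 of 7 listed genes. None was above 0 in untreated Irs2-/- islets, and Neurod1 and Insm1, which maintain the endocrine state in adult islets, fell, where 16.8% of all genes were called. Neurod1 read 12.02 and 12.09 in untreated WT islets and 11.14 and 11.22 in untreated Irs2-/- islets (-0.87 ± 0.15, SE, adjusted p = 0.0107). Insm1 read 10.60 and 10.79 against 9.36 and 9.69 (-1.17 ± 0.25, adjusted p = 0.019). St18 (-0.48 ± 0.15, adjusted p = 0.0631), Pax4 (-0.19 ± 0.16, adjusted p = 0.447) and Nkx2-2 (-0.18 ± 0.12, adjusted p = 0.345) did not pass, and Fev and Rfx6 had no probe set that named them alone. Between treated genotypes 0 of the 5 passed, with 0 at an unadjusted p under 0.05. Without untreated replicate 1 of both genotypes 0 of the 5 passed and all 5 stayed below 0.

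The neuronal genes that REST represses did not move one way. Of 18 tested, 2 rose, 2 fell and 12 were above 0 in untreated Irs2-/- islets, with a median of 0.10. Of all genes tested, 16.8% were called in this comparison. Vgf, a granule protein and neuropeptide precursor, read 7.60 and 7.68 in untreated WT islets and 10.87 and 10.87 in untreated Irs2-/- islets (3.23 ± 0.16, SE, adjusted p = 0.000209). On tungstate it read 9.77 and 9.33 in Irs2-/- islets, a difference of -1.32 ± 0.16 from water (adjusted p = 0.0185). Scg3, a granule protein, rose by 0.56 ± 0.14 (adjusted p = 0.0338), whereas the exocytosis regulator Cplx2 fell by 0.61 on the log2 scale (SE 0.11, adjusted p = 0.0125) and Gjd2, the gap junction protein that couples beta cells, fell by 0.94 (SE 0.20, adjusted p = 0.02). Without untreated replicate 1 of both genotypes, Vgf and Stmn2 were the 2 genes that passed and Cplx2, Gjd2 and Scg3 did not.

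Close relatives of the 8 genes allowed a comparison within families, beside a share of 16.8% of all genes called between untreated genotypes. Of 9 tested, Bsg alone passed between untreated genotypes and the median was -0.01; without untreated replicate 1 of both genotypes Bsg did not pass either. Ldhb, the lactate dehydrogenase subunit that favours pyruvate, read 8.63 and 8.31 in untreated WT islets and 7.85 and 8.03 in untreated Irs2-/- islets, opposite in sign to Ldha but not past the threshold (-0.53 ± 0.18, SE, adjusted p = 0.0855). Aldh1a2, another retinaldehyde dehydrogenase, gave 0.66 ± 0.22 (adjusted p = 0.0767), and Emb, which like Bsg accompanies monocarboxylate transporters, -0.21 ± 0.12 (adjusted p = 0.272). The further relatives Aldh1a1 (0.84 ± 0.55, adjusted p = 0.33), Hk3 (-0.12 ± 0.14) and Hkdc1 (-0.01 ± 0.12), outside the rule for named genes, did not pass either.

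Retinoic acid is the product of ALDH1A3, and 6 of 12 genes of its synthesis, transport and response could be tested. None passed between untreated genotypes (1 at an unadjusted p under 0.05), and their median was 0.15. Of all 13369 genes tested, 16.8% were called there and 4440 had an unadjusted p under 0.05. Dhrs3, a retinaldehyde reductase that retinoic acid induces, was nearest at 0.54 ± 0.16 (SE, adjusted p = 0.06). Rbp4, the retinol carrier of the blood, gave 0.33 ± 0.19 (adjusted p = 0.272), Cyp26b1, which degrades retinoic acid, 0.26 ± 0.19 (adjusted p = 0.401), and the receptor gene Rara -0.21 ± 0.15 (adjusted p = 0.375). The receptor gene Rarb and the binding protein genes Crabp1 and Crabp2 stayed under the level tested.

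Genes whose pattern over the 8 arrays was most like that of a called gene were found by the root mean square difference of the values after centring each gene on its own mean. For Aldh1a3 these were Zcchc12 (0.42), Gm2115 (0.42) and Pdyn (0.44), beside a spread of Aldh1a3 itself of 1.49 (SD over the 8 arrays). Pdyn, the dynorphin precursor, read 7.74 and 8.29 in untreated WT, 10.94 and 10.53 in untreated Irs2-/- and 10.66 and 9.82 in treated Irs2-/- islets. All genes named here were picked for their likeness on the same 8 arrays, so that likeness is no separate result. For Hk2 they were Dcaf12 (0.065), Itgax (0.078) and Il27ra (0.084), beside a spread of 0.34. Itgax, which encodes CD11c of dendritic cells and macrophages, read 6.67 and 6.53 in untreated Irs2-/- and 5.77 to 6.04 on the other 6 arrays. For Ldha they were Ifi47 (0.13), Gimap8 (0.15) and Fli1 (0.16), beside a spread of 1.0; Gimap8 is expressed in lymphocytes and Fli1 in blood and endothelial cells. For Fbp2 they were C1qb (0.22), a complement gene of macrophages, Gmds (0.24) and Alg5 (0.24), beside a spread of 0.68.

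Markers of other cells moved together with several of these genes. Of 16 macrophage and antigen presentation genes tested, 14 rose in untreated Irs2-/- islets, and their mean level was 9.14 to 9.15 there against 7.36 to 7.93 in untreated WT, 7.39 to 7.63 in treated WT and 7.74 to 7.95 in treated Irs2-/- islets. The untreated Irs2-/- arrays were the highest of the 8 here, as they were for Hk2, Ldha and Fbp2, and treated Irs2-/- islets overlapped untreated WT islets. For tungstate in Irs2-/- islets 7 of the 16 fell and 0 rose, where 0.494% of all genes tested were called. The T cell and B cell list stood at 7.80 and 6.98 in untreated Irs2-/-, 6.35 and 5.24 in untreated WT, 5.90 and 5.23 in treated WT and 5.66 and 6.24 in treated Irs2-/- islets, with 3 of 9 genes higher between untreated genotypes. Like Ldha, Slc16a1 and Rest, it was higher in replicate 1 of both untreated groups. Fibroblast and stellate markers read 8.60 to 8.81 in untreated Irs2-/-, 7.37 to 8.23 in untreated WT, 6.82 to 6.99 in treated WT and 8.06 to 8.50 in treated Irs2-/- islets (3 of 11 higher), with replicate 1 of the untreated WT group the highest of the WT arrays. Endothelial markers had 2 of 11 genes higher, at 8.12 to 8.13 in untreated Irs2-/- against 7.61 in untreated WT islets, where 8.27% of all genes were called higher. Of 5 duct markers 2 were higher, at 8.05 to 8.15 against 7.63 to 7.74. Acinar markers varied most, from 8.94 to 11.82 within untreated WT islets alone and from 11.33 to 12.19 in untreated Irs2-/- islets (1 of 15 higher).

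Among the defining markers of these cells, the myeloid integrin Itgam and the duct channel Cftr were under the level tested on every array, with means of 4.08 and 3.87. The mannose receptor Mrc1 and the T cell gene Cd5 were left out of the tests by their means of 5.12 and 5.22, but in untreated Irs2-/- islets Mrc1 read 5.60 and 6.43 (5.00 and 4.59 in untreated WT islets) and Cd5 read 7.11 and 6.07 (5.25 and 4.45). Mature beta cell markers went the other way, with 7 of 9 lower between untreated genotypes and a list mean of 9.99 to 10.23 in untreated Irs2-/- against 11.53 to 11.56 in untreated WT and 10.36 to 11.05 in treated Irs2-/- islets. The marker list of the other islet endocrine cells read 11.28 to 11.53 in untreated Irs2-/- and 11.50 to 11.73 in untreated WT islets (2 of 8 lower). In this comparison 16.8% of all genes were called in either direction. Without untreated replicate 1 of both genotypes, fewer mature beta cell genes passed between untreated genotypes, and fewer macrophage genes for tungstate in Irs2-/- islets. In both comparisons fewer of all genes passed too, with 1 array left in each untreated group. In replicate 2 of the untreated groups the macrophage list read 9.14 in Irs2-/- and 7.36 in WT islets. The lymphocyte list read 6.98 and 5.24 there, and the mature beta cell list 10.23 and 11.56. Schwann cell markers gave 0 of 1 tested. The part of these cells in the readings of the 8 genes was not tested, beyond the acinar covariate, under which the same 4 genes passed between untreated genotypes.

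**Figure D5:**
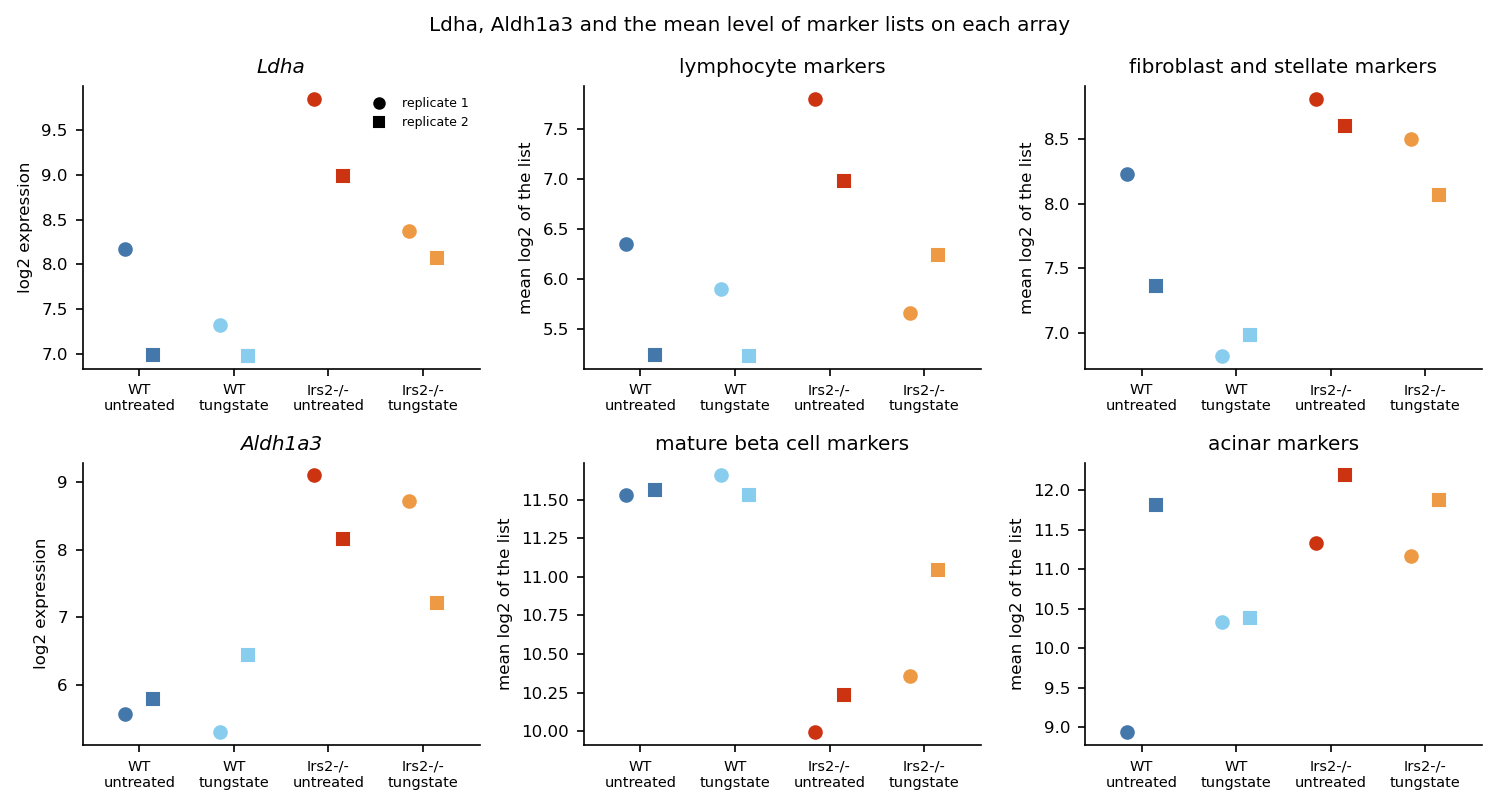
Log2 expression of Ldha and Aldh1a3 and the mean log2 level of 4 marker lists (vertical axes, separate scales) on each array by group; circles are replicate 1 and squares replicate 2. Ldha and the lymphocyte list are both highest in replicate 1 of the untreated Irs2-/- group (9.85 and 7.80). In the treated Irs2-/- group Aldh1a3 reads 8.73 and 7.21 and the mature beta cell list 10.36 and 11.05.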

How the data were processed

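Total RNA of isolated islets was extracted with an RNeasy kit, labelled with biotin and hybridised to Affymetrix arrays, per the labels' protocols. The authors summarised each probe set on the log2 scale with RMA (affy, R 2.7.0), per the submitters' processing notes, and deposited those log2 values. No source used here names array batches, and raw array files were not used here. All 8 columns deposited were mapped by sample title, and 0 were left unused. Probe sets were named through the platform annotation and RefSeq gene numbers: 34945 of 45037 name a single gene. Each gene was represented by its brightest probe set by the mean over all arrays, and 4824 genes whose mean was under the 40th percentile (log2 5.27) were not tested. This left 13369, among them 7 of the 8 genes described.

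The 4 group means were fitted with limma 3.58.1 (R 4.3.3, with version 1.17.8 of the data.table package), whose variances were moderated by empirical Bayes (4 residual degrees of freedom, 3.89 from the prior). Each of 6 contrasts was adjusted over all genes tested (Benjamini-Hochberg), and genes under 0.05 were called. Precision is limited by having 2 arrays a group.

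The genes described and the gene lists were chosen with earlier results of these data known, so no list supports another. Genes named were the 8, up to 4 of each pathway list by the smallest p between untreated genotypes, every gene of a list of up to 7, Irs2, Ins2 and Gcg, and the 3 genes most like each called gene; others are marked. Alternatives changed the filter, the variance model, the arrays fitted, a replicate block, array weights, the normalization, the probe set choice, an acinar covariate and the threshold, and left out arrays; counts of the lists under these settings were added after seeing the data. Promoter windows were the 250 bases before each start in the RefSeq table (GRCm38.p6).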

Additional observations from a re-analysis of the deposited data

Results flagged for a closer look

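Gast was singled out because its tungstate difference itself differed between genotypes: Irs2-/- minus WT was -2.37 ± 0.19 (log2, SE, limma adjusted p = 0.021), from 10.00 and 10.26 on water to 7.85 and 7.76 on tungstate in Irs2-/- islets, against 4.53 and 4.69 to 4.60 and 4.72 in WT islets, where all 4 readings were under the level used for untested genes (5.27) and a fall could not have been seen.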

How the results depend on the processing

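Of 857 recomputed differences of the 7 tested genes, 791 kept their direction and their side of the threshold, 9 called differences were no longer called, 14 became called and 43 changed sign, none of them a difference that had passed. Between untreated genotypes 4 genes were called; leaving out single arrays gave 2 to 5, leaving out untreated replicate 1 of both genotypes gave 2 (Fbp2 and Ldha), and a filter at the 60th percentile left Hk2 untested and gave 3. Fbp2 was called each time. Between treated genotypes 1 gene passed with the acinar covariate (Ldha) and 0 to 1 without single arrays. For tungstate in Irs2-/- islets 1 gene passed with median centring (Hk2), with averaged probe sets (Hk2), with the acinar covariate (Ldha) and at an adjusted p under 0.1 (Hk2). For treated Irs2-/- against untreated WT islets 1 gene (Aldh1a3) passed at an adjusted p under 0.1, and 0 to 1 without single arrays. The cause of these changes was not tested.

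Replicate numbers were not taken as pairs, which needed a correlation of the deviations of same-numbered arrays over 0.1 in each of the 6 pairs of groups: it was over 0.1 in 3, among them the 2 untreated groups (0.418), and -0.066 at the lowest. With a replicate block, 5 of the genes were called between untreated genotypes, Hk1 being added (adjusted p = 0.0298), 2435 of all genes against 2245 without it, and no gene of the 8 in another comparison.

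The sign changes were in differences that had not passed. For Neurog3 between untreated genotypes these were 0.012 (averaged probe sets), 0.050 (next brightest probe set), 0.032 (acinar covariate) and 0.32 (without untreated replicate 1 of both genotypes); between treated genotypes 0.0063 (quantile normalization), 0.011, 0.051 and 0.020 in the first 3 of those settings; in the interaction 0.0074 (quantile) and 0.0012 (next brightest); and 0.0038 (next brightest) for treated Irs2-/- against untreated WT islets. Without untreated replicate 1 of both genotypes, Rest gave 0.20 for tungstate in Irs2-/- islets, 0.10 in WT islets and 0.093 in the interaction, and tungstate in WT islets gave 0.16 for Ldha and 0.081 for Hk1, for which averaged and next brightest probe sets gave 0.025 and 0.063.

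Leaving out single arrays moved Neurog3 from -0.34 to 0.29 (untreated genotypes), -0.59 to 0.53 (treated genotypes), -0.64 to 0.48 (tungstate in Irs2-/-), -0.25 to 0.10 (tungstate in WT), -0.66 to 0.46 (treated Irs2-/- against untreated WT) and -0.56 to 0.56 (interaction). Hk1 moved from -0.019 to 0.71 (treated genotypes), -0.73 to 0.00021 (tungstate in Irs2-/-), -0.11 to 0.081 (tungstate in WT), -0.031 to 0.70 (treated Irs2-/- against untreated WT) and -0.72 to 0.013 (interaction). For tungstate in Irs2-/- islets Aldh1a3 moved from -1.42 to 0.10 and Rest from -0.77 to 0.20, for tungstate in WT islets Aldh1a3 from -0.38 to 0.77, Hk2 from -0.10 to 4.9e-05, Ldha from -1.02 to 0.16 and Rest from -0.27 to 0.10, and in the interaction Rest from -0.69 to 0.28.

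Counts over all genes moved by over 1.5 times. Without single arrays they were 652 to 2639 (untreated genotypes), 3 to 679 (treated genotypes), 16 to 265 (tungstate in Irs2-/-), 0 to 9 (tungstate in WT), 4 to 585 (treated Irs2-/- against untreated WT) and 0 to 12 (interaction); without untreated replicate 1 of both genotypes 367 were called between untreated genotypes, 31 for tungstate in Irs2-/-, 5 for treated Irs2-/- against untreated WT and 6 in the interaction. At an adjusted p under 0.1 they were 3511, 516, 153, 0, 463 and 13. The acinar covariate gave 282 between treated genotypes, 169 for tungstate in Irs2-/- and 6 in WT; a variance trend 224 between treated genotypes and 142 for treated Irs2-/- against untreated WT; probe set choices 77 and 70 between treated genotypes; the arrays compared alone 19 and 8, array weights 27 and the stricter filter 34 for tungstate in Irs2-/- (the 8 being treated Irs2-/- against untreated WT), and median centring 87 for the last.

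With 2 arrays a group the standard errors of the 7 tested genes reached 0.55 between groups, so that small differences could not be seen, and a group left with 1 array was assumed to vary like the others. Signals near or under 5.27 (Hk2 and Gast in WT islets, Aldh1a3 in WT islets besides the treated replicate 2, Slc16a1) are not measured sizes.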
